A study of Mus musculus with 6 samples.

Results

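The 7 genes described here are 4 enzymes of mitochondrial fatty acid oxidation (Cpt1b, Acadl, Acadm and Hadh), the mitochondrial carrier Ucp3, and the nuclear receptors Ppara and Pparg. They were taken by gene symbol from an array of 223 probes for 203 named genes, on which each of the 7 has 1 probe. The choice of genes was made with earlier results of these data known. Total RNA came from cryosections of the soleus, a muscle rich in slow fibres that works against gravity, from C57Bl/6 mice whose hindlimbs had been kept from bearing weight (hindlimb suspension), with 3 microgram used per array. All 6 arrays carry the same label, marked wt for wild type, so the values show how these transcripts varied within the suspended condition and no comparison with loaded muscle was made. The labels give neither age nor sex, nor do they state that each array stands for a different animal, so the spread and the p-values below cover these 6 arrays and may be partly technical.

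Fatty acids enter the mitochondrial matrix as carnitine esters made by carnitine palmitoyltransferase, and are then shortened in repeated cycles of dehydrogenation, hydration, a second dehydrogenation and thiolysis. Cpt1b encodes the muscle form of that transferase, which is the gate of the pathway. Acadl and Acadm encode the long-chain and medium-chain acyl-CoA dehydrogenases of the first step, and Hadh the hydroxyacyl-CoA dehydrogenase of the second dehydrogenation. Ucp3 encodes an uncoupling protein of the mitochondrial inner membrane that is found mainly in skeletal muscle. Ppara and Pparg encode receptors that bind fatty acids and, as heterodimers with retinoid X receptors, bind DNA at direct repeats of the hexamer AGGTCA. The product of Ppara is known as a regulator of fatty acid oxidation in muscle, heart and liver, and that of Pparg as a regulator of fat cell formation.

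Because the receptors bind that hexamer, the 250 bases before the annotated start of each gene were searched for it on both strands. RefSeq windows (GRCm38.p6) were matched for 6 of the 7 genes and not for Cpt1b. The windows of 3 genes are shown, since the ratio of Acadl to Ucp3 varied little between arrays and the ratios of Acadm to both varied more. Each runs 5′ to 3′ on the strand of its gene, with AGGTCA or its complement TGACCT in capitals.
Ucp3: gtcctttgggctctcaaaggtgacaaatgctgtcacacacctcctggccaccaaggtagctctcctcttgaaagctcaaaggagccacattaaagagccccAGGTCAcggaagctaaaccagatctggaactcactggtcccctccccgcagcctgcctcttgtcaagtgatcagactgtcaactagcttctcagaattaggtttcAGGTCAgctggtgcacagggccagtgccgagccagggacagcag
Acadl: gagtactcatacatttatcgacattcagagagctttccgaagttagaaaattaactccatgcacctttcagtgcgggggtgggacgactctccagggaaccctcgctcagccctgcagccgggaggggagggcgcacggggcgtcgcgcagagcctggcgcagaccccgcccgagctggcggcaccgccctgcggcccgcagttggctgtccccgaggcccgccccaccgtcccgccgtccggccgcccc
Acadm: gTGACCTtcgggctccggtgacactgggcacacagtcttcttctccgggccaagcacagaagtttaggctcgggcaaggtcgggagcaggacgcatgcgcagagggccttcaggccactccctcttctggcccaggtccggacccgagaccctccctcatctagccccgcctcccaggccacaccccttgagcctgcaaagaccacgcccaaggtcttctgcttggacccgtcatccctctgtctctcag
The Ucp3 window lies at chr7:100472741-100472990 on the plus strand, the Acadl window at chr1:66863310-66863559 on the minus strand and the Acadm window at chr3:153944644-153944893 on the minus strand. The Ucp3 window holds the hexamer 2 times on the strand of the gene, beginning 149 and 44 bases before the start. The Acadm window holds it 1 time on the opposite strand, beginning 249 bases before the start, and the Acadl window holds none. Among the other members, 2 of the 3 windows of Pparg hold it 1 time each, and those of Hadh and Ppara hold none. Of all 32851 RefSeq windows of this length, 14.0% hold the hexamer. The full direct repeat AGGTCANAGGTCA, which contains the hexamer 2 times, is in none of the 8 member windows and in 11 of all windows (0.0335%). These matches describe letters in a short window and were not tested against the expression values.

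Muscle markers were read beside the tissue label. All 6 probed muscle markers (Myh7, Mb, Myh1, Myh2, Myh4 and Des) were above 0 on every array. So were all 5 probed endothelial markers and 171 of all 223 probes, so this does not test the label. Replicate 1 stood apart from the others: its summed intensity was 37.5 against 15.3 to 18.5, and its correlation with each other array over the 171 probes above 0 on all arrays was 0.857 to 0.911. Deposited intensities were higher on replicate 1 than on any other array for 99 of these 171 probes (57.9%) and for 5 of the 7 members. Values with and without that array are therefore given where it matters. Below, a level is the log2 intensity minus the median over the 171 probes of the same array, so a level of 0 equals that median and a step of 1 means a doubling. Levels of different genes depend on their probes and are not compared as amounts of transcript.

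All 7 members were above 0 on all 6 arrays. Apart from Acadm and Pparg, their levels varied little between the arrays: the SD was 0.09 for Cpt1b, 0.13 for Acadl, 0.15 for Ppara, 0.21 for Hadh and 0.22 for Ucp3, against a median of 0.48 over all 171 measured probes (n = 6). Acadm had an SD of 0.42 and Pparg of 0.81. Pparg was the single member above the median of all probes over the 6 arrays under median centring. Acadm was above it as well without replicate 1 (0.42 against 0.34) and under a stricter filter on weak signals (0.44 against 0.42). The same held with a pseudocount (0.37 against 0.33) and, narrowly, with quantile normalization (0.460 against 0.457). With lowess normalization Acadm equalled the median of all probes (0.44). Without replicate 2 all 7 members lay below that median. The median over the 7 members was 0.21. It was 0.16 without replicate 2 (0.48 over all probes) and 0.17 without replicate 1 (0.34 over all probes). It depended on the scaling, being 0.38 without scaling (0.57 over all probes) and 0.41 when arrays were scaled to reference genes (0.55 over all probes).

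Cpt1b, the entry step, had deposited intensities of 0.0194, 0.0127, 0.0146, 0.0172, 0.0143 and 0.0130 on replicates 1 to 6. Relative to the array median its levels were 0.75, 0.76, 0.80, 0.81, 0.80 and 1.00, with a mean of 0.82 ± 0.09 (SD, n = 6). Replicate 6 was the highest and the other 5 arrays lay within 0.06 of each other. None of the 171 measured probes had a smaller SD than Cpt1b. Without replicate 6 its SD was 0.03, while under equal totals it was 0.30, with 34 probes below it. A small spread under median centring means that Cpt1b kept close to the array median, which the scaling itself takes as constant.

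Acadl, the long-chain dehydrogenase, had intensities of 0.0400, 0.0210, 0.0303, 0.0326, 0.0259 and 0.0221 on replicates 1 to 6. Its levels were 1.80, 1.49, 1.85, 1.73, 1.66 and 1.77, with a mean of 1.72 ± 0.13 (SD, n = 6). Replicate 2 was the lowest, and without it the SD was 0.07.

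Acadm, the medium-chain dehydrogenase, did not share this pattern. Its intensities were 0.0215, 0.0159, 0.0125, 0.0105, 0.0085 and 0.0082 on replicates 1 to 6, and its levels 0.90, 1.08, 0.57, 0.10, 0.05 and 0.34, with a mean of 0.51 ± 0.42 (SD, n = 6). Replicates 1 and 2 were high and replicates 4 and 5 low, with a 2.05-fold difference in level between replicates 2 and 5. Replicate 2, lowest for Acadl, was the highest for Acadm.

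Hadh, the enzyme of the second dehydrogenation, had intensities of 0.0731, 0.0571, 0.0721, 0.0756, 0.0604 and 0.0638 on replicates 1 to 6. These deposited values varied least among the members, with a coefficient of variation of 11.3%. Its levels were 2.67, 2.93, 3.10, 2.95, 2.88 and 3.30, with a mean of 2.97 ± 0.21 (SD, n = 6). Replicate 1 was the lowest in level although its deposited intensity was the second highest, since the median of that array was also high.

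Ucp3 had intensities of 0.0320, 0.0135, 0.0193, 0.0208, 0.0179 and 0.0164 on replicates 1 to 6. Its levels were 1.48, 0.85, 1.20, 1.09, 1.13 and 1.34, with a mean of 1.18 ± 0.22 (SD, n = 6). Replicate 1 was the highest and replicate 2 the lowest, 1.55-fold apart.

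The receptor Ppara had intensities of 0.0142, 0.0073, 0.0084, 0.0097, 0.0097 and 0.0068 on replicates 1 to 6. Its levels were 0.30, -0.04, 0.00, -0.01, 0.24 and 0.07, with a mean of 0.09 ± 0.15 (SD, n = 6). Replicates 1 and 5 were the highest, and the whole range was 1.27-fold.

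Pparg had intensities of 0.0063, 0.0124, 0.0031, 0.0039, 0.0043 and 0.0026 on replicates 1 to 6. Its levels were -0.87, 0.73, -1.44, -1.33, -0.93 and -1.32, with a mean of -0.86 ± 0.81 (SD, n = 6). Replicate 2 stood 1.90 log2 units above the mean of the other 5 arrays, a factor of 3.74, and did not overlap with them. Without replicate 2 the mean was -1.18 and the SD 0.26 (n = 5). Pparg was also the weakest signal of the 7: its lowest value was 2.60 times the size of the most negative value of the same array, whereas that minimum ratio was 5.62 for Ppara and between 8.20 and 36.6 for the others. The deposited rounding to 0.0001 limits the lowest Pparg value to about 0.03 log2 units.

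**Figure D1:**
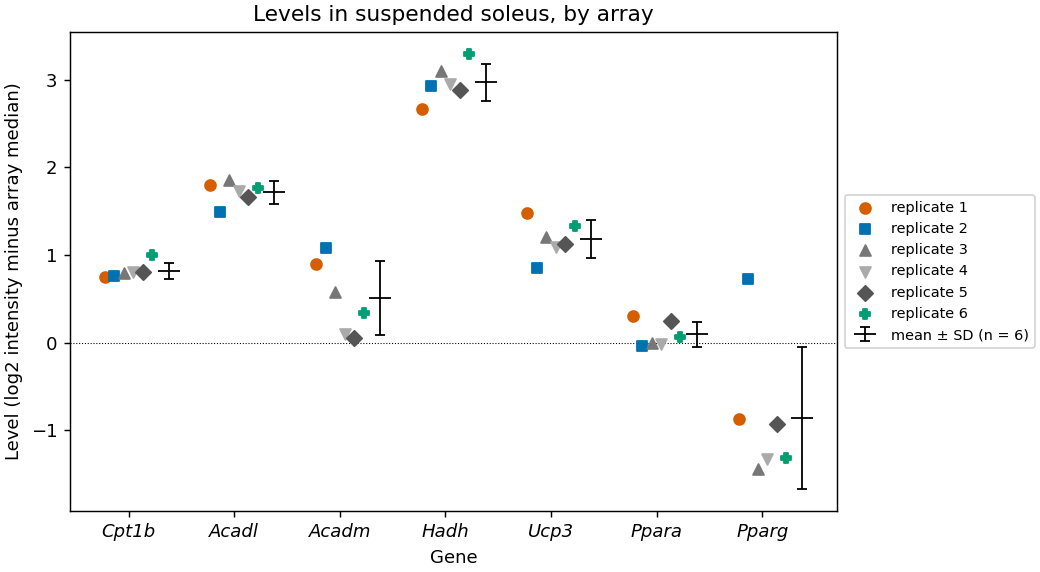
Level of each of the 7 genes (vertical axis, log2 intensity minus the array median) on each of the 6 arrays, with mean ± SD to the right of the points. The arrays lie close together for Cpt1b, Acadl and Ppara, Acadm is spread from 0.05 to 1.08, and replicate 2 stands at 0.73 for Pparg while the other arrays lie between -1.44 and -0.87.

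Markers of other cells on replicate 2 are given beside the Pparg value. Of the 6 fat cell markers listed, Fabp4 and Lipe were on the array. Fabp4, a fatty acid binding protein of fat cells and vessels, had levels of 2.87, 2.23, 2.12, 1.70, 1.94 and 1.97 on replicates 1 to 6, so replicate 2 was second to replicate 1. Lipe, the hormone-sensitive lipase, had intensities of 0.0055, 0.0017, 0.0014, 0.0012, -0.0002 and 0.0001 and was not measured on all arrays. The endothelial marker Pecam1 was highest on replicate 2, at 2.43 against 1.36 to 2.14 on the others. None of the other endothelial markers was highest there. Flt1 and Kdr were second highest, at 0.44 and -0.06. Cdh5 was second lowest, at 1.52, and Tek lowest, at -1.71. The summed level of the 5 endothelial markers was 3.44 on replicate 2, 2.63 on replicate 1 and 3.11 to 3.42 on the rest. Neither immune marker probed, Il6 and Il1b, was above 0 on more than 2 arrays. The part of other cell types in the Pparg value was not tested, and in such bulk RNA fewer cells of a type and less RNA per cell cannot be told apart.

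**Figure D2:**
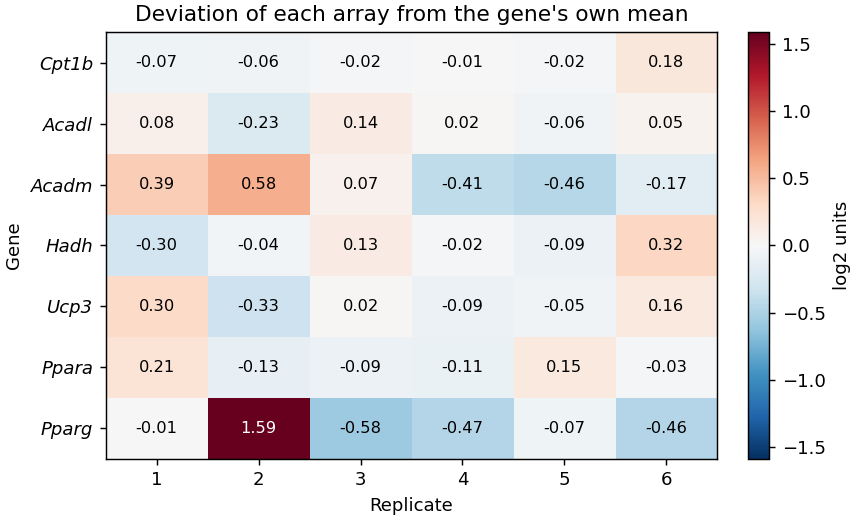
Deviation of each array (columns) from the mean of the same gene (rows) in log2 units, on a colour scale symmetric about 0. Replicate 2 deviates by 1.59 for Pparg and 0.58 for Acadm but by -0.33 for Ucp3 and -0.23 for Acadl, and replicate 1 by -0.30 for Hadh and 0.30 for Ucp3.

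Ratios between members within an array were examined next, because a factor common to an array cancels in them. Their absolute size depends on the probes, so only their variation is read. For the 21 pairs of members the median SD of the log2 ratio over the arrays was 0.46, against 0.73 over all 14535 pairs of measured probes, and 16 of the 21 lay below that overall median. Without replicate 2 the median was 0.25 against 0.71, and 21 of 21 lay below. Signal strength differs between the pairs compared: among the 128 probes left by a stricter filter on weak signals, which keeps all members, the overall median was 0.60 and 15 of the 21 pairs lay below it. Without replicate 1 the median was 0.45 against 0.53, and 14 of 21 lay below.

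The ratios fell into 3 sets, which were drawn after their values were seen and are a description. The 10 pairs among Cpt1b, Acadl, Hadh, Ucp3 and Ppara had SDs between 0.14 and 0.32, with a median of 0.18. The ratio of Acadl to Ucp3 was among the least variable in this set, at 0.32, 0.64, 0.65, 0.65, 0.53 and 0.43 log2 units on replicates 1 to 6 (SD 0.14). A smaller SD was found in 0.296% of all pairs of probes. The ratio of Cpt1b to Acadl was nearly as steady, at -1.04, -0.73, -1.05, -0.92, -0.86 and -0.77 (SD 0.14), a 1.26-fold range. Each of these 2 genes varied little by itself (SD 0.09 and 0.13), and Pearson's r between their levels was 0.26. The ratio of Cpt1b to Hadh had an SD of 0.15 and that of Ucp3 to Ppara an SD of 0.16. With quantile normalization, which does not preserve ratios, the SD of Acadl to Ucp3 was 0.25 and that of Acadl to Ppara 0.29 in place of 0.17. The most variable pairs of this set were Hadh to Ppara (SD 0.32) and Hadh to Ucp3 (SD 0.31). On replicate 1 the ratio of Hadh to Ucp3 was 1.19 against 1.75 to 2.08 on the other arrays, and without that array the SD was 0.12. Leaving out replicate 1 also lowered the SD of Cpt1b to Ucp3 from 0.21 to 0.12, of Acadl to Hadh from 0.23 to 0.15 and of Cpt1b to Hadh to 0.10.

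The 5 pairs of Acadm with those genes had SDs between 0.46 and 0.53. The ratio of Acadl to Acadm, both acyl-CoA dehydrogenases, was 0.90, 0.40, 1.28, 1.63, 1.61 and 1.43 log2 units on replicates 1 to 6 (SD 0.48), a 2.35-fold range with replicates 1 and 2 the lowest. Without replicate 2 its SD was 0.30, and that of Acadm to Ucp3 was 0.23 in place of 0.49. The 6 pairs with Pparg had SDs between 0.61 (Acadm) and 0.96 (Ucp3), and between 0.12 and 0.47 without replicate 2.

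The ratio of the receptors to each other was examined array by array. Ppara over Pparg was 1.17, 1.44, 1.31, 1.17 and 1.39 log2 units on replicates 1, 3, 4, 5 and 6, and -0.76 on replicate 2. Its SD was 0.85 over 6 arrays and 0.12 without replicate 2. On those 5 arrays the levels of Ppara and Pparg had r = 0.98 (exact permutation p = 0.025, unadjusted), whereas over all 6 r was -0.18 (exact p = 0.86). Replicate 2 was left out because of its Pparg value, so the value on 5 arrays is a description.

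**Figure D3:**
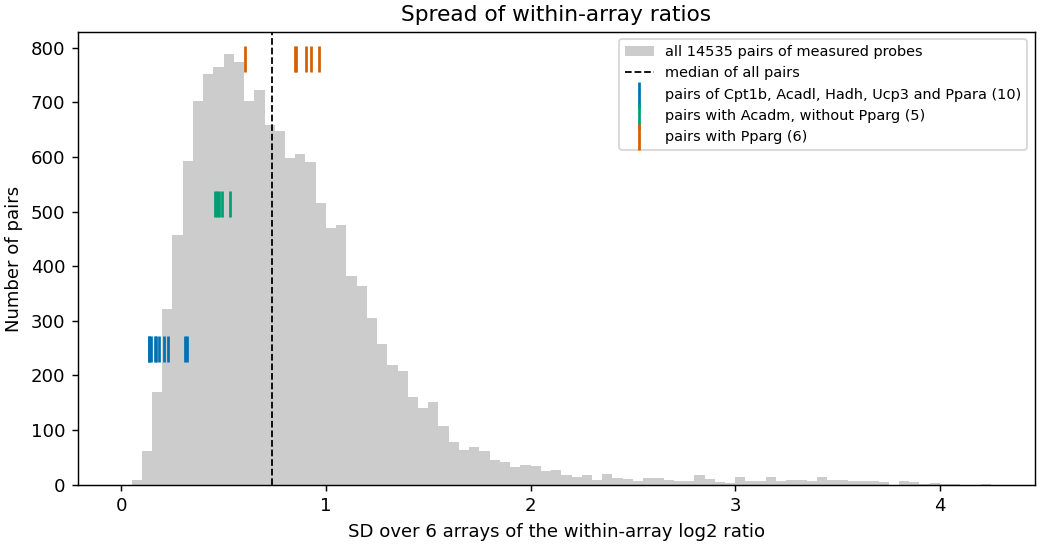
Histogram of the SD over 6 arrays of the within-array log2 ratio (horizontal axis) for all 14535 pairs of measured probes (vertical axis, number of pairs), with a dashed line at their median of 0.73. Ticks mark the 21 pairs of members, whose height on the axis has no meaning: pairs among Cpt1b, Acadl, Hadh, Ucp3 and Ppara lie between 0.14 and 0.32, pairs with Acadm between 0.46 and 0.53, and pairs with Pparg between 0.61 and 0.96.

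For short, the 4 enzymes and Ucp3 are called the 5 oxidation genes below, although Ucp3 is a carrier and not an enzyme of the pathway. Whether they rose and fell with a receptor was asked with Pearson's r and Spearman's rho over the 6 arrays. An exact two-sided permutation test over the 720 orders of the arrays was used. The tests were run for all 14535 pairs of measured probes, and p-values were adjusted by Benjamini-Hochberg over all of them. An unadjusted p under 0.05 was found for 11.7% of all pairs (1697) and for 2 of the 21 pairs of members, that is 9.52%. This depended on the scaling: 7 of 21 were called without scaling (33.3%, against 16.6% of all pairs), 5 with equal totals (23.8% against 12.4%), 11 with reference genes (52.4% against 19.3%) and 0 with quantile normalization (against 9.997%). After adjustment 0 of the 14535 pairs passed, the lowest adjusted p being 0.33 (exact permutation). The smallest p that 720 orders allow is 0.0014. With limma's regression on the receptor, 0 of 170 probes passed for either receptor after adjustment, and 7 (Ppara, 4.12%) and 6 (Pparg, 3.53%) had an unadjusted p under 0.05.

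None of the 5 oxidation genes was called with Ppara, for which 3.53% of the other 170 measured probes (6) had an unadjusted p under 0.05. Ucp3 had the highest value, r = 0.65 and rho = 0.83 (exact p = 0.18 and 0.058, adjusted 0.54 and 0.59). Acadl had r = 0.25 and rho = 0.43 (exact p = 0.67 and 0.42, adjusted 0.87 and 0.86). Acadm had r = -0.059 and rho = -0.26 (exact p = 0.90 and 0.66, adjusted 0.97 and 0.93). Cpt1b had r = -0.16 and rho = -0.14 (exact p = 0.83 and 0.80, adjusted 0.94 and 0.96). Hadh had r = -0.59 and rho = -0.43 (exact p = 0.23 and 0.42, adjusted 0.59 and 0.86). The Ppara level lay farthest from its median on replicates 1 and 5. Without both, r was 0.97 for Cpt1b, 0.97 for Hadh, 0.91 for Ucp3, 0.57 for Acadl and -0.50 for Acadm over the 4 arrays left, whose Ppara levels span from -0.04 to 0.07, so the signs for Cpt1b and Hadh rest on those 2 arrays.

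With Pparg 1 of the 5 genes was called, and again 3.53% of the other 170 probes (6). This was Acadl, with r = -0.90 and rho = -0.60 (exact p = 0.039 and 0.24, adjusted 0.40 and 0.77). The value rests on replicate 2, which was lowest for Acadl and highest for Pparg. Without that array r was -0.45 (exact p = 0.45), and without replicates 2 and 3, where Pparg lay farthest from its median, it was -0.10. Without replicate 1 r was -0.94 (exact p = 0.017). Without replicate 3, 4, 5 or 6 the exact p was 0.10, 0.050, 0.12 and 0.050, while r stayed between -0.93 and -0.89. The smallest exact p that 5 arrays allow is 0.0083. Scaled to reference genes, r turned to 0.36. Acadm went the other way, with r = 0.69 and rho = 0.49 (exact p = 0.081 and 0.36, adjusted 0.45 and 0.83), and r = 0.22 without replicate 2. Ucp3 had r = -0.64 and rho = -0.14 (exact p = 0.22 and 0.80, adjusted 0.58 and 0.96), and r = 0.39 without replicate 2. Cpt1b had r = -0.43 and rho = -0.54 (exact p = 0.27 and 0.30, adjusted 0.62 and 0.81). Hadh had r = -0.32 and rho = -0.66 (exact p = 0.44 and 0.18, adjusted 0.75 and 0.72). Without replicates 2 and 3, r was 0.48 for Acadm, 0.37 for Ucp3, -0.69 for Cpt1b and -0.79 for Hadh.

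**Figure D4:**
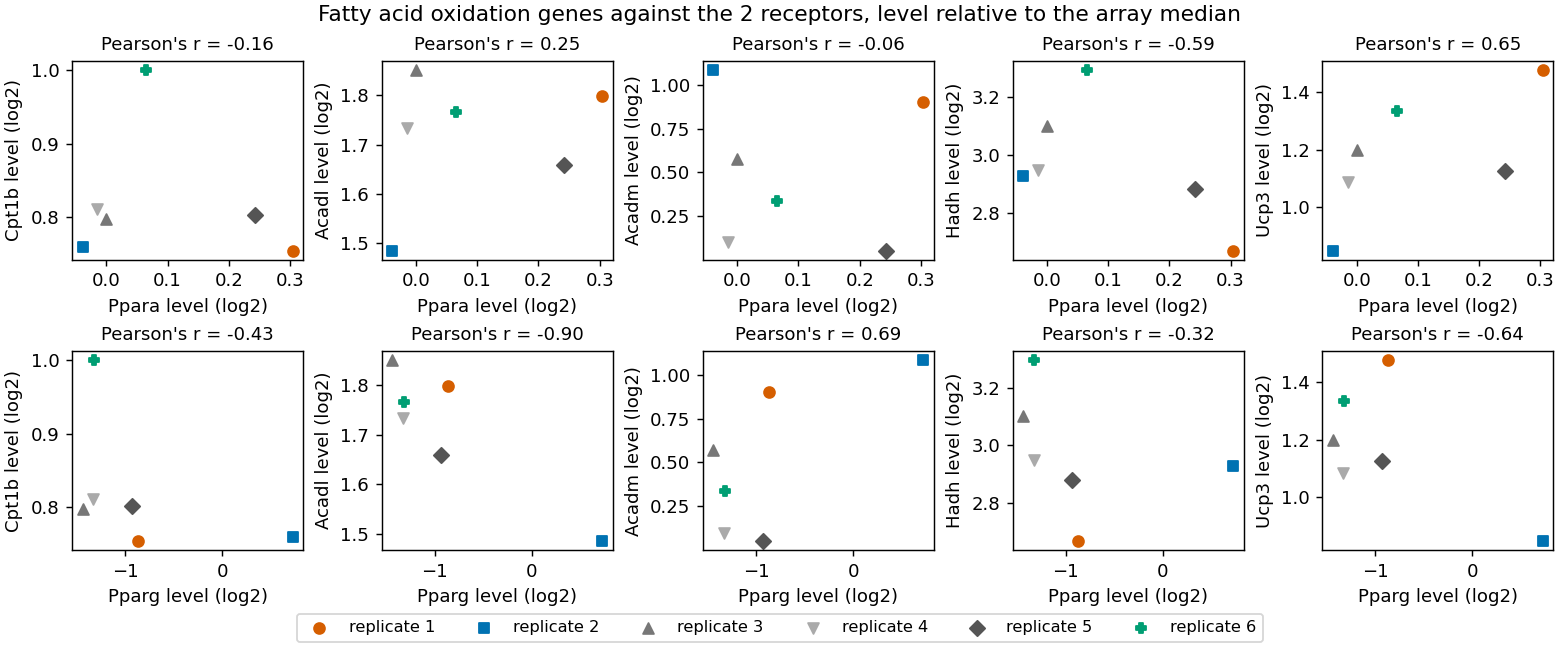
Level of each of the 4 enzymes and Ucp3 (vertical axes) against that of Ppara (upper row) and Pparg (lower row). Levels are log2 relative to the array median, with 1 point per array and Pearson's r above each panel. In the lower row replicate 2 lies alone at a Pparg level of 0.73, and in the upper row replicates 1 and 5 lie at the right, at 0.30 and 0.24.

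These correlations depended on how the arrays were scaled. With the deposited intensities on the log2 scale and no scaling, r with Ppara was 0.93 for Cpt1b, 0.92 for Ucp3, 0.90 for Acadl, 0.56 for Acadm and 0.55 for Hadh, and 3 of the 5 genes had an unadjusted p under 0.05. Without scaling Ppara had such a p with 46 of the 170 other probes, where it had 6 under median centring. Scaled to the 4 measured reference genes, 4 of the 5 were called with Ppara, and so were 59 of 170 probes. These reference genes varied themselves: under median centring their SDs were 0.55 (Gapdh), 0.70 (Ywhaz), 0.37 (Rps29) and 0.21 (Pgk1). The median SD over all measured probes was 0.48. With equal totals 1 of the 5 was called with Ppara, and 32 of 170 probes. Adjusted over all pairs, 0 pairs passed under these settings as well. With quantile normalization 0 of 5 were called with either receptor, beside 9 (Ppara) and 4 (Pparg) of 170 probes. With lowess normalization Hadh was called with Ppara (r = -0.83, exact p = 0.024), as were 8 of 170 probes in all. With reference genes the 1 gene called with Pparg was Acadm (r = 0.91, exact p = 0.039), not Acadl, and 12 of 170 probes were called in all. Under quantile normalization r was 0.78 for Ucp3, -0.45 for Acadl and -0.65 for Hadh with Ppara. Ucp3 kept a positive r with Ppara, from 0.33 to 0.92, under each of the scalings, filters and left-out arrays run.

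**Figure D5:**
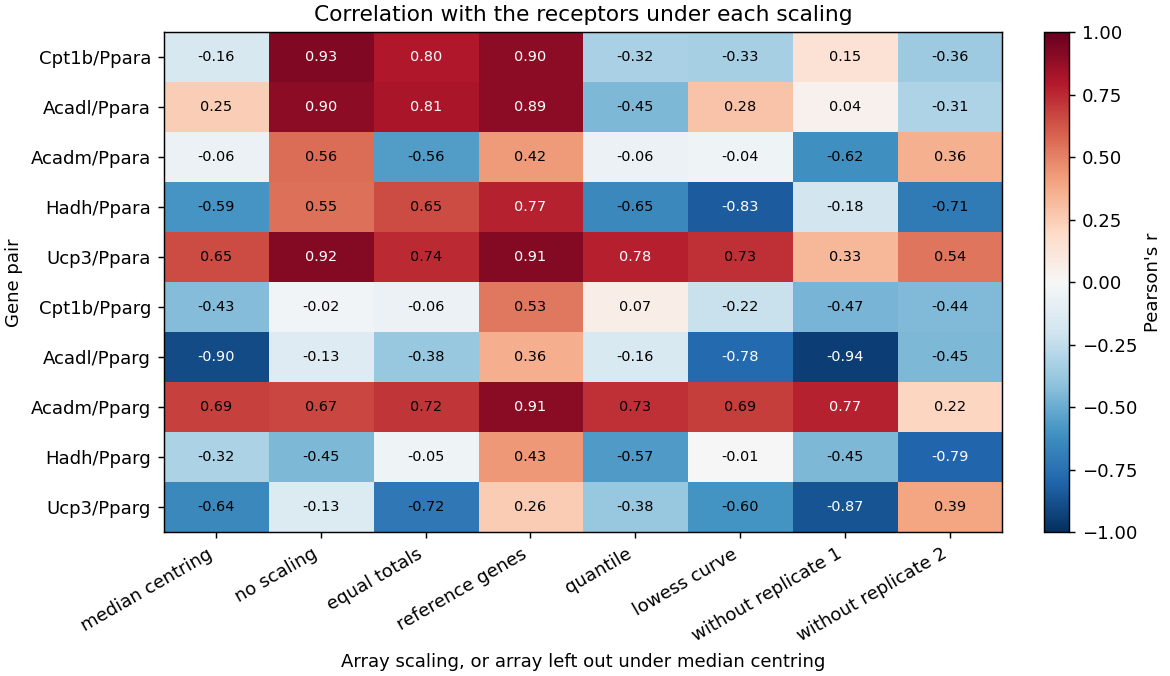
Pearson's r (colour from -1 to 1, value in each cell) of the 4 enzymes and Ucp3 with Ppara and Pparg (rows). Columns are 6 ways of scaling the arrays and, with median centring, leaving out replicate 1 or 2. The rows of Ucp3 with Ppara and of Acadm with Pparg are positive throughout, and Cpt1b with Ppara ranges from -0.36 to 0.93.

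Among the members other than the receptors, Cpt1b and Hadh had r = 0.83 and rho = 0.71 (exact p = 0.047 and 0.14, adjusted 0.41 and 0.68). Both were highest on replicate 6 and lowest on replicate 1. Without replicate 6 r was 0.60 (exact p = 0.35). Without replicate 1, 2, 4 or 5 the exact p was between 0.067 and 0.12, while r was 0.86, 0.85, 0.83 and 0.83. Without replicate 3 r was 0.92. Acadl and Ucp3, the pair of steady ratio, had r = 0.80 and rho = 0.77 (exact p = 0.056 and 0.10, adjusted 0.42 and 0.65). Without replicate 2 their r was 0.46 (exact p = 0.43), and with quantile normalization it was 0.21 (exact p = 0.72). Acadm had r = -0.080 with Ucp3 and -0.30 with Acadl over 6 arrays, but 0.85 and 0.77 without replicate 2. The median r over the 10 pairs of the 5 oxidation genes was 0.050, against 0.016 over all pairs of probes.

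Of the other genes of fatty acid handling, 7 of the 32 listed were on the array and 6 were measured. None of the 6 was called with Cpt1b (background 3.53%), Acadm (11.2%), Hadh (7.06%), Ucp3 (13.5%), Ppara or Pparg, and 1 was called with Acadl (6.47%). That gene was Dgat1, an enzyme of triglyceride synthesis, with r = 0.80 (exact p = 0.047, adjusted 0.41), and r was 0.29 without replicate 2. Cd36, the fatty acid transporter, had r = 0.82 with Cpt1b and 0.77 with Hadh and was not called with either. Spearman's rho was 0.029 with Cpt1b and 0.49 with Hadh. Cd36 was highest on replicate 6, at 4.24 against 2.73 to 3.32 on the others, as were Cpt1b and Hadh. Among the receptor partners and coregulators listed, Tfam, a mitochondrial transcription factor, was the only one of 16 on the array, and it was called with no member. Of the 3 measured genes of mitochondrial respiration, 2 were called with Ucp3 and none with the other members. Cox4i1 and Cox6a2, subunits of cytochrome c oxidase, had r = 0.97 and 0.96 with Ucp3 (exact p = 0.0056 for each, adjusted 0.33 for each). Of the 4 measured reference genes, Gapdh and Rps29 were also called with Ucp3 (r = 0.90 and 0.88, exact p = 0.0014 and 0.015, adjusted 0.33 and 0.35), and so was the fast myosin Myh4 (r = 0.93, exact p = 0.0069, adjusted 0.34), 1 of 6 muscle markers. Ppara was called with 1 reference gene, Ywhaz (r = 0.74, exact p = 0.046, adjusted 0.41, and r = 0.32 without replicate 1), and with 2 muscle markers, Myh7 and Des. Hadh was called with the fast myosin Myh1 (r = -0.85, exact p = 0.028, adjusted 0.37), and Acadl with 1 of the 5 endothelial markers, Pecam1 (r = -0.83, exact p = 0.039, adjusted 0.40). The 1 measured fat cell marker, Fabp4, was called with no member, and no marker of nerve was probed.

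For each member the 3 named probes with the highest r over the 6 arrays were listed. They are the top of 170 values each, so their r is a measure of likeness and no test, and none passed after adjustment. For Ucp3 they were Ldhb, the heart-type lactate dehydrogenase subunit (r = 0.97, rho = 1), Cox4i1 (0.97) and the insulin-sensitive glucose transporter Slc2a4 (0.96). Without any one array these stayed at 0.91 or above. Ldhb had levels of 5.74, 4.17, 4.81, 4.48, 4.61 and 5.35 on replicates 1 to 6, with the same order of arrays as Ucp3. The ratio of Cox4i1 to Ucp3 had an SD of 0.08. With quantile normalization the r of Cox4i1 was -0.22, and scaled to reference genes that of Ldhb was -0.29.

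For Ppara the 3 were genes of the muscle fibre: the slow myosin Myh7 (r = 0.84, rho = 1), the intermediate filament gene Des (0.81) and the kinase gene Dmpk (0.80). Myh7 had levels of 7.53, 6.21, 6.43, 6.33, 6.57 and 6.49 on replicates 1 to 6, so the 6 arrays fell in the same order as for Ppara. Without replicate 1, which was highest for all of these, r was 0.83 for Myh7, 0.56 for Des and 0.52 for Dmpk. Under equal totals the values were 0.038, 0.26 and 0.061.

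For Acadm the 3 were Pdgfra, a growth factor receptor that marks fibroblast-like cells (r = 0.99), the matrix metalloproteinase Mmp2 (0.96) and the lactate dehydrogenase subunit Ldha (0.89). Pdgfra had levels of -0.66, -0.67, -1.07, -1.61, -1.60 and -1.38 in the same order, high and low on the same arrays as Acadm, and the ratio of Acadm to Pdgfra had an SD of 0.07. Its r stayed between 0.94 and 0.99 under the scalings run and was at least 0.98 without any one array. Pdgfra was the 1 fibroblast marker of 4 on the array, and its part in the Acadm pattern was not tested. Mmp2 was a weak signal, with a mean level of -1.51, and was removed by the stricter filter.

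For Acadl the 3 were Pcna, a sliding clamp of DNA replication (r = 0.90), 1 of the 2 probes of fibronectin, Fn1 (0.86), and the muscle aldolase Aldoa (0.85). All rested on replicate 2, without which r was 0.56, 0.54 and 0.39. Pcna was a weak signal, with a level of -3.23 on replicate 2, and was removed by the stricter filter. For Hadh they were the endothelial cadherin Cdh5 (0.87), the membrane-bound metalloproteinase Mmp14 (0.85) and the growth factor receptor Egfr (0.83), with r between 0.62 and 0.96 when any one array was left out. For Cpt1b they were the myogenic regulator Myog (0.92), the transcription factor Srf (0.90) and the tenascin Tnxb (0.87). Myog fell to 0.37 without replicate 6, whereas Srf and Tnxb stayed at 0.85 or above without any one array. With quantile normalization r was 0.11 for Myog, -0.22 for Srf and 0.17 for Tnxb. For Pparg they were the insulin receptor Insr (0.74), Acadm (0.69) and the neuronal enolase Eno2 (0.68). Insr fell to 0.39 and Acadm to 0.22 without replicate 2, and Eno2 lay between 0.63 and 0.82 without any one array. The stricter filter also removed Insr, whose level was -4.07 on replicate 3 and -3.70 on replicate 6.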

How the data were processed

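The deposited table holds 1 intensity per probe and array. These deposited intensities are on a linear scale, and 171 of the 1338 values lie at or below 0, as after a background subtraction, with method, scaling and scanner not given in the sources used here. Total RNA came from cryosections, per the labels. Probes were named through GEO's platform annotation (205 probes with 1 symbol, 18 unnamed), and all 7 member symbols matched the mouse RefSeq gene table.

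Probes above 0 on all 6 arrays (171) were log2-transformed with no pseudocount, minus each array's median. Correlations were computed in Python 3.11.15 with numpy 2.4.6 and checked on simulated data. Alternatives (limma 3.58.1 for quantile, lowess and regression) were no scaling, equal totals, reference genes, quantile, lowess, a pseudocount of 0.002, a stricter filter at the 25th percentile, no filter, Spearman's rho and leaving out each array. Named genes were the members, the 3 probes most like each, and list genes a result turned on. The members and lists were chosen with earlier results of these data known. The number of arrays limits the precision.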

Additional observations from a re-analysis of the deposited data

Results flagged for a closer look

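A result is listed here when the highest or lowest of the 6 arrays lay farther from its neighbour, as a share of the whole range, than Dixon's critical ratio for 6 values allows. Chance gives that in a share of about 0.05 of groups, and 27 of the 171 measured probes showed it under median centring. Among the 7 member levels it held for Cpt1b (ratio 0.767), where replicate 6 was at 1.00 and the others between 0.75 and 0.81, and for Pparg (0.737), where replicate 2 was at 0.73 and the others between -1.44 and -0.87. Among the 21 within-array ratios it held for 5 (23.8%), against 15.3% of all 14535 pairs of measured probes. Those of Cpt1b (0.694), Acadl (0.724), Ucp3 (0.763) and Ppara (0.879) to Pparg were lowest on replicate 2 and share that 1 Pparg value, and that of Hadh to Ucp3 (0.633) was lowest on replicate 1.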

How the results depend on the processing

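The median SD of the 21 ratios, 0.46, cannot change under whole-array scaling. It was 0.43 with quantile normalization, 0.47 with lowess and 0.39 with the pseudocount, and between 0.25 (without replicate 2) and 0.50 when an array was left out. The median SD of the 7 members was 0.38 without scaling, 0.30 with equal totals and 0.41 with reference genes, and 0.16 to 0.24 when an array was left out. The number of the 21 pairs with an unadjusted exact p under 0.05 was 2, against 11.7% of all pairs. The percentage of all pairs called in each other setting is given in brackets. The number became 7 without scaling (16.6%), 5 with equal totals (12.4%), 11 with reference genes (19.3%) and 0 with quantile normalization (9.997%). It was 0 with Spearman's rho (5.88%), 1 with the pseudocount (13.9%), 1 with the stricter filter (15.3%) and 3 without a filter (11.6%). Leaving out an array gave 0 to 2 (5.47% to 10.5%). With Ppara, 0 of 5 genes became 3 without scaling (46 of 170 probes), 1 with equal totals (32), 4 with reference genes (59), 1 with lowess (8) and 1 without a filter (27, here over all 223 probes). With Pparg, 1 of 5 (6 of 170 probes) became 0 without scaling (3), with equal totals (10), quantile normalization (4) or Spearman's rho (3). It was also 0 with the stricter filter (3, here over its 128 probes), without a filter (5, over all 223 probes) and with limma (6). Leaving out an array gave 0 to 1 (3 to 15 probes). Signs of r turned as follows, and the cause was not tested. Without scaling, r was 0.56 (Acadm and Ppara), 0.93 (Cpt1b and Ppara), 0.55 (Hadh and Ppara), 0.14 (both receptors) and -0.0063 (Cpt1b and Srf). With reference genes it was 0.42, 0.90, 0.77 and 0.56 for the first 4 of these, 0.36, 0.53, 0.43 and 0.26 for Acadl, Cpt1b, Hadh and Ucp3 with Pparg, and -0.29 for Ucp3 and Ldhb. With equal totals it was 0.80 (Cpt1b and Ppara) and 0.65 (Hadh and Ppara). With quantile normalization it was -0.45 (Acadl and Ppara), 0.067 (Cpt1b and Pparg), -0.015 (Acadl and Aldoa), -0.22 (Cpt1b and Srf), -0.082 (Ppara and Des) and -0.22 (Ucp3 and Cox4i1). For Acadm and Ppara it was 0.0061 with the pseudocount, 0.046 with the stricter filter and 0.15 without a filter, and for Cpt1b and Ppara 0.22 without a filter. Spearman's rho of the receptors was 0.086. Without the 2 arrays farthest from the receptor's median it was 0.97 (Cpt1b and Ppara), 0.97 (Hadh and Ppara) and 0.37 (Ucp3 and Pparg). Leaving out 1 array gave -0.31 to 0.50 (Acadl and Ppara), -0.62 to 0.36 (Acadm and Ppara), -0.36 to 0.15 (Cpt1b and Ppara), -0.32 to 0.98 (both receptors) and -0.87 to 0.39 (Ucp3 and Pparg). Signal over background limits Pparg most.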

Other observations

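Pparg was not alone in being high on replicate 2. Under median centring 12 of the 171 measured probes lay more than 1 log2 unit above the mean of the other 5 arrays there, while the median over all probes was -0.09. Pparg had the largest upward difference, at 1.90, while 2 probes differed by at least as much downwards. It was followed by the insulin receptor Insr (1.86), the inducible nitric oxide synthase Nos2 (1.81), the adhesion molecule Vcam1 (1.56) and the angiotensin receptor Agtr2 (1.54). These genes were named after their values were seen. Insr was a weak signal, with levels of -4.07 and -3.70 on replicates 3 and 6, and was removed by the stricter filter. The probe of Acadm was 0.69 higher on replicate 2, and replicate 2 was the highest of the 6 arrays for 23 of the 171 probes (13.5%).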
